A study of Mus musculus with 8 samples.

Results

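The guanylate-binding protein genes Gbp2, Gbp3, Gbp4, Gbp5, Gbp6, Gbp7, Gbp8, Gbp9 and Gbp10 were all lower in Plpp1 knockout than in control libraries of CD8+ T cells from mouse melanoma tumours. These 9 genes were taken from the deposited count table by their gene names, and all 9 were found among its 49492 genes. The KO group (Lckcre-PLPP1fl/fl) comprised 4 libraries, KO1 to KO4, from mice with loxP-flanked Plpp1 and a Cre recombinase under the Lck promoter, which is active in T-lineage cells. The WT group (PLPP1fl/fl) comprised 4 libraries, WT1 to WT4, from mice with the same floxed alleles, for which the labels name no Cre, so KO and WT also differ in the Cre. All mice were described as female, without an age, and carried subcutaneous tumours of the B16 melanoma line. Cells were taken with beads against CD8a on day 14. Plpp1 encodes a phosphatase that acts on phosphatidic acid and related lipids, and the design addresses what its loss changes in tumour-infiltrating T cells. Since no label ties a library to an animal of its own, every p-value rests on library-to-library spread that could be purely technical.

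Guanylate-binding proteins are large GTPases of the dynamin superfamily that cells make in response to interferons, above all interferon gamma. Janus kinases at the receptors start the signal, and interferon regulatory factors are among the proteins that carry it to their promoters. The proteins assemble on vacuoles and membranes of intracellular pathogens together with the immunity-related GTPases, and help to release bacterial products to inflammasomes. Gbp2 and Gbp5 end in a motif that is prenylated and anchors the protein to membranes. These functions are best known from macrophages and epithelial cells, while T cells also express the genes.

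In the deposited annotation 4 of the members lay on the plus strand of chromosome 3 and 5 on the minus strand of chromosome 5 (GRCm38). From left to right, Gbp5 spanned chr3:142493978-142522344, Gbp7 chr3:142530342-142550149, Gbp3 chr3:142560026-142573209 and Gbp2 chr3:142620602-142638008. Gbp8 spanned chr5:105014150-105139540, Gbp9 chr5:105077630-105139539, Gbp4 chr5:105115767-105139586, Gbp10 chr5:105215699-105239533 and Gbp6 chr5:105270702-105293698. The members are related genes, and those on chromosome 5 are close copies of each other. The following 60-base stretches, taken from GENCODE M21 transcripts, are shown because they let the members be compared at the same conserved place. Each covers the codons of the phosphate-binding loop, the part of the GTPase domain that holds the nucleotide, and lies within a single coding exon. Capitals mark bases that differ from Gbp2, and each line is read 5′ to 3′ along the coding strand.
Gbp2: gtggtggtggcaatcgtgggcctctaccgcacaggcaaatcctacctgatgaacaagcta
Gbp5: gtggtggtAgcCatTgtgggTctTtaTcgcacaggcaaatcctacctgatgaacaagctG
Gbp7: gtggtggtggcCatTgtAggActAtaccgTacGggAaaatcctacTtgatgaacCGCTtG
Gbp3: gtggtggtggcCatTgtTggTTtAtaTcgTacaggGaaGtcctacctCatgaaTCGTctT
Gbp8: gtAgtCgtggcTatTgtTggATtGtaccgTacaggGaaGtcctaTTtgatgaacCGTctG
Gbp9: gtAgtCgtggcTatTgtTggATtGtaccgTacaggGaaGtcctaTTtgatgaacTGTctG
Gbp4: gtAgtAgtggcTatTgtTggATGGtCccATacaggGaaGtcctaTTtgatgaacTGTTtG
Gbp10: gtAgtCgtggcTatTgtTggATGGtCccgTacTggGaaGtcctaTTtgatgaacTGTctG
Gbp6: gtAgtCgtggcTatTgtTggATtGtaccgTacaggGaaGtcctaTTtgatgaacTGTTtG
The stretch lies at chr3:142623808-142623867 in Gbp2 and at chr3:142500671-142500730 in Gbp5, the member nearest to it with 7 differing bases of 60. It lies at chr3:142534637-142534696 in Gbp7 (14 differing bases) and at chr3:142561860-142561919 in Gbp3 (16). On chromosome 5 it lies at chr5:105050880-105050939 in Gbp8 (17), chr5:105105680-105105739 in Gbp9 (17), chr5:105136854-105136913 in Gbp4 (21), chr5:105235967-105236026 in Gbp10 (20) and chr5:105290853-105290912 in Gbp6 (18).

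Likeness over the coding sequence, and above all unchanged stretches in any exon, bear on how well reads can be told apart. Gbp6 and Gbp10 were identical at 98.4% of 1833 aligned coding bases. Other pairs within the chromosome 5 cluster matched at 90.2% to 92.9%, whereas pairs within the chromosome 3 cluster matched at 64.8% to 78.6%. Cut into windows of 100 bases, 64.5% of Gbp6 and 73.5% of Gbp10 windows occurred unchanged in another gene. For Gbp7 it was 10.01%, and for any of the other 6 members at most 4.39%. These shares include predicted genes annotated on the same bases, which do not bear on telling copies apart. Between the copies alone, 36.3% of Gbp6 windows occurred in Gbp10 and 60.1% of Gbp10 windows in Gbp6. Of Gbp7 windows, 9.59% occurred in the predicted gene Gm43802 and 0.43% in Gbp3. Neither the read length nor the treatment of reads with several matches is given in the sources used here, so the division of counts between Gbp6 and Gbp10 is uncertain.

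Exons are shared as well. By their coordinates, 7 of the 9 members had exon bases in common with another gene of the table, and Gbp3 and Gbp5 had none. Gm43302, a predicted gene of 4310 exon bases, joins exons of both Gbp10 and Gbp6. It shared 1726 bases, 29.0% of the exon bases of Gbp6, and 1792 bases, 46.3% of those of Gbp10, all on the same strand. Gbp8, Gbp9 and Gbp4 had a 61-base stretch at chr5:105139480-105139540 in common, of which 60 bases belonged to Gbp9. That stretch makes up 0.814% of Gbp4, 1.16% of Gbp9 and 1.77% of Gbp8 exon bases. Mir6381 covers 24 bases of a Gbp2 exon on the opposite strand.

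**Figure D1:**
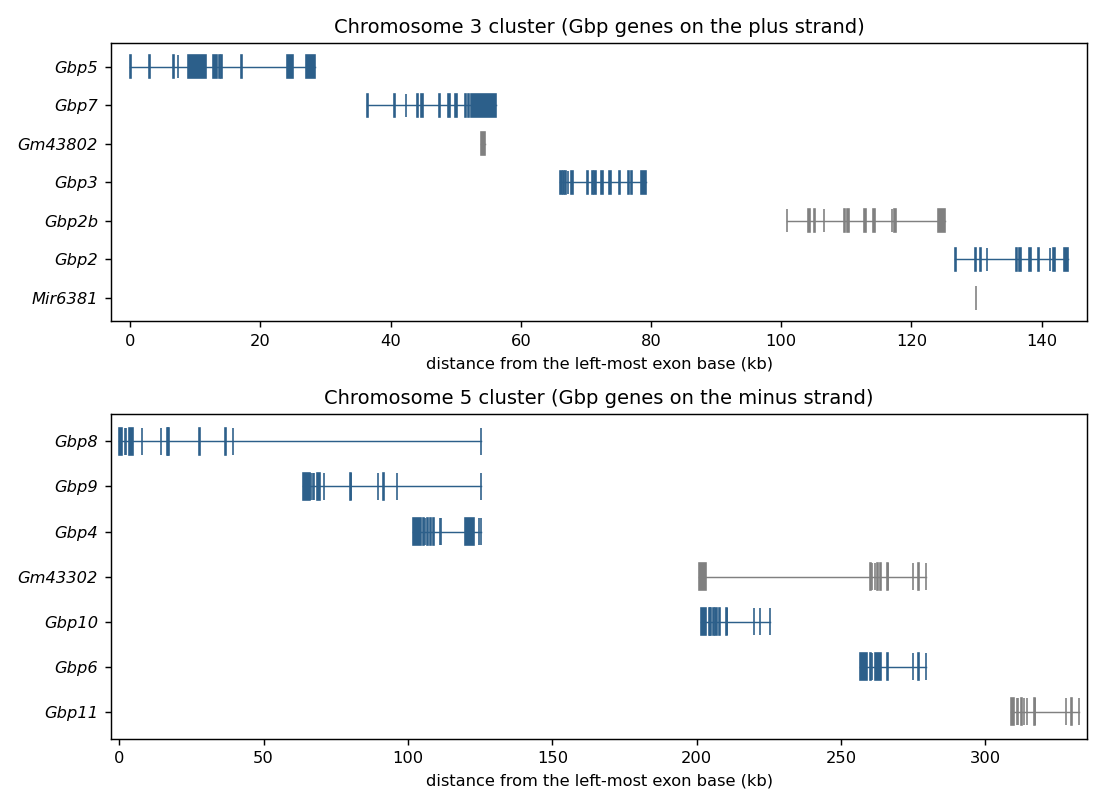
Exon blocks (boxes) of the guanylate-binding protein genes on chromosomes 3 and 5, by distance in kb from the left-most exon base of each cluster; members are blue, and other genes of the family or genes sharing exon bases are grey. Gm43302 spans Gbp10 and Gbp6, Gm43802 lies within a Gbp7 exon, and Gbp8, Gbp9 and Gbp4 end at a common stretch on the right.

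How the authors counted reads in shared exons is not given, and Gm43802 shows a part of it. All 637 of its exon bases lie inside an exon of Gbp7 on the same strand, 11.3% of the Gbp7 exon bases. In CPM (TMM-scaled counts per 1000000 counts) per kilobase of exon, Gm43802 held 21.6 ± 1.1 in KO and 43.8 ± 0.84 in WT libraries, where Gbp7 held 16.5 ± 0.90 in KO and 36.7 ± 0.92 in WT (SD, n = 4). Reads in that stretch were therefore counted for Gm43802 although they also lie in Gbp7. Whether they were counted for Gbp7 too was not tested. With each sharing gene added to its member, a setting chosen after the data were seen, the log2 fold changes were -1.14 (SE 0.045) for Gbp7 with Gm43802, -1.82 (SE 0.046) for Gbp6 with Gbp10 and Gm43302, and -1.92 (SE 0.046) for Gbp2 with Mir6381. Gbp4, Gbp8 and Gbp9 summed gave -1.43 (SE 0.048). Reads counted for both genes would enter such a sum more than once, so the sums cannot show what the shared exons change.

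The libraries held 44118131 to 57716522 counts in KO and 49856353 to 61999941 in WT. Plpp1 itself stood at 0.376 to 0.698 CPM in KO and at 0.677 to 1.08 CPM in WT libraries, and the groups overlapped (log2 fold change -0.84, SE 0.26, adjusted p = 0.0064 in edgeR's quasi-likelihood test, with adjustment by Benjamini and Hochberg). The Y-linked gene Ddx3y averaged 78.4 ± 3.1 CPM in KO against 0.0703 ± 0.043 in WT, and Xist, which coats the inactive X chromosome, 51.1 ± 4.4 in KO against 747 ± 27 in WT (SD, n = 4). The KO libraries thus carried Y-linked RNA despite the described sex, and each difference below is also one between libraries with and without it, which cannot be told apart from the genotype. Of 17940 tested genes 11542 were called at an adjusted p under 0.05 (64.3%), with 32.8% of tested genes higher in KO, so a call by itself is common here.

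All 9 members passed the filter on low counts, and all 9 were lower in KO at an adjusted p under 0.05, where 31.6% of all tested genes were called lower. In all 9 the KO libraries also lay wholly below the WT libraries, as in 28.2% of tested genes. In 8 of the 9 the fall passed 1 on the log2 scale, as in 7.55% of tested genes. The median log2 fold change of the members was -1.44, against -0.01 over all tested genes. Members share sequence and lie side by side, so they are not 9 separate observations.

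**Figure D2:**
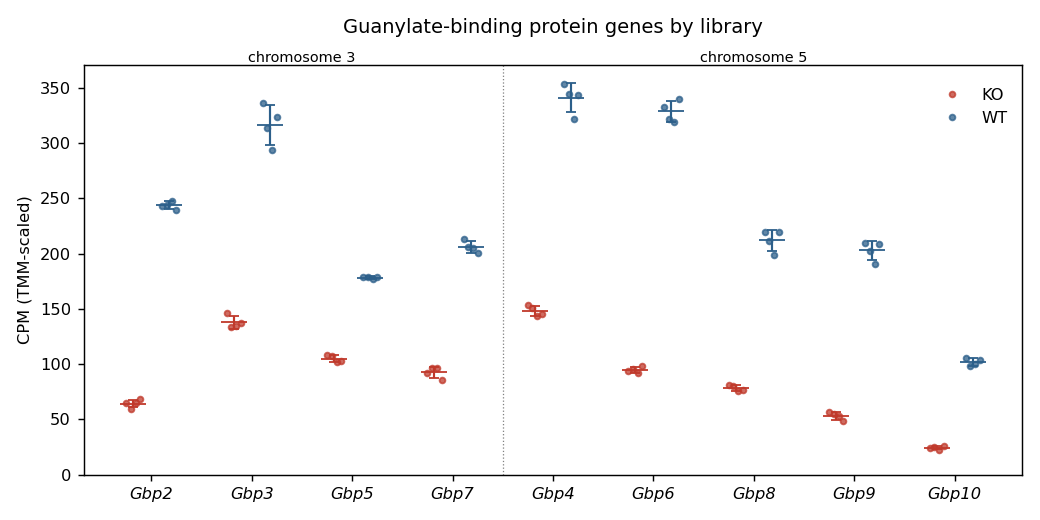
TMM-scaled CPM of each member (points: libraries; lines and bars: mean and SD of 4), KO in red left of WT in blue. The KO libraries lie below the WT libraries in every member, with Gbp5 at 102 to 108 CPM in KO and 177 to 179 in WT as the narrowest relative gap.

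On chromosome 3, the fall was deepest in Gbp2, which restricts parasites such as Toxoplasma in mouse cells. Gbp2 had 64.9, 59.7, 64.6 and 68.2 CPM in KO1 to KO4, against 243, 244, 248 and 239 CPM in WT1 to WT4. It stood at 26.4% of its WT mean in KO (log2 fold change -1.92, SE 0.047, edgeR, adjusted p = 7.94e-20). The libraries within a genotype lay close together, and the groups were far apart.

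Gbp5, the other prenylated member and one linked to inflammasome activation in macrophages, showed the smallest fall of the family. It had 108, 107, 102 and 103 CPM in the KO libraries, against 179, 179, 177 and 179 CPM in the WT libraries. That is 58.9% of the WT mean (log2 fold change -0.76, SE 0.042, edgeR, adjusted p = 1.69e-13). The ratio of Gbp2 to Gbp5, per kilobase of exon, was 1.47 to 1.75 in KO and 3.52 to 3.70 in WT libraries, without overlap. This pair was compared after the values were seen, and the ratio was given no test.

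Gbp3 and Gbp7 took a middle place. Gbp3 had 146, 133, 135 and 137 CPM in KO, against 336, 313, 293 and 323 CPM in WT libraries, so it was 43.6% of its WT mean (log2 fold change -1.20, SE 0.049, edgeR, adjusted p = 1.01e-15). WT3 was the lowest WT library and still lay above KO1, the highest KO library. Gbp7, which in mouse macrophages has been tied to the assembly of the NADPH oxidase on bacterial vacuoles, had 91.9, 96.7, 96.2 and 85.8 CPM in KO, against 213, 206, 205 and 200 CPM in WT libraries. Its log2 fold change was -1.15 (SE 0.046, edgeR, adjusted p = 7.09e-16).

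On chromosome 5, Gbp10 and Gbp6, which in mouse macrophages have both been linked to defence against bacteria, were lower as well. Gbp10 had 24.6, 25.3, 22.4 and 26.0 CPM in KO, against 105, 98.3, 100.1 and 104 CPM in WT libraries, the fewest counts of any member in both genotypes. Its KO mean was 24.1% of the WT mean (log2 fold change -2.05, SE 0.051, edgeR, adjusted p = 1.07e-19), the largest fall among the members. Gbp6 had 93.7, 95.4, 92.0 and 98.2 CPM in KO, against 333, 322, 319 and 340 CPM in WT libraries (log2 fold change -1.79, SE 0.045, edgeR, adjusted p = 1.20e-19). The Gbp6 counts ran close to those of the joining gene Gm43302, which held 90.1 to 96.3 CPM in KO and 313 to 334 CPM in WT libraries (log2 fold change -1.79, SE 0.045). Per kilobase the ratio of Gbp6 to Gbp10 was 2.46 to 2.67 in KO and 2.06 to 2.13 in WT libraries, and the split of reads between these near-identical copies was not tested.

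Gbp9 and Gbp8, which share their 5′ exon with Gbp4, differed in the size of their fall. Gbp9 had 57.1, 55.2, 53.2 and 48.3 CPM in KO, against 209, 202, 190 and 209 CPM in WT libraries, or 26.4% of the WT mean (log2 fold change -1.92, SE 0.052, edgeR, adjusted p = 5.68e-19). Gbp8 had 81.0, 80.5, 75.6 and 76.8 CPM in KO, against 219, 211, 199 and 219 CPM in WT libraries (log2 fold change -1.44, SE 0.046, edgeR, adjusted p = 1.18e-17). Gbp4, the member with the most counts, had 154, 150, 144 and 145 CPM in KO, against 353, 345, 322 and 343 CPM in WT libraries (log2 fold change -1.20, SE 0.046, edgeR, adjusted p = 2.27e-16). The ranges of KO and WT were apart in each of these genes, and the stretch they share is at most 1.77% of the exon bases of any of them.

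Summed over the family, the members held 784 to 821 CPM in KO libraries and 2054 to 2190 CPM in WT libraries. The fall of the chromosome 5 members as 1 row was -1.58 on the log2 scale (SE 0.046), and that of the chromosome 3 members -1.25 (SE 0.043), both with the reads of close copies pooled. The chromosome 5 members made up 49.3% to 50.6% of the family sum in KO and 55.1% to 56.3% in WT libraries. In bulk RNA, fewer cells expressing a gene and less RNA per cell cannot be told apart.

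The make-up of the sum differed between genotypes. Gbp5 made up 13.1% ± 0.16 of it in KO and 8.37% ± 0.19 in WT libraries, and Gbp2 8.05% ± 0.52 in KO and 11.4% ± 0.46 in WT (SD, n = 4). Gbp8 held nearly the same share, 9.81% ± 0.16 in KO and 9.95% ± 0.20 in WT (SD, n = 4), with overlapping ranges. These shares are descriptions of the same counts and were not tested.

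**Figure D3:**
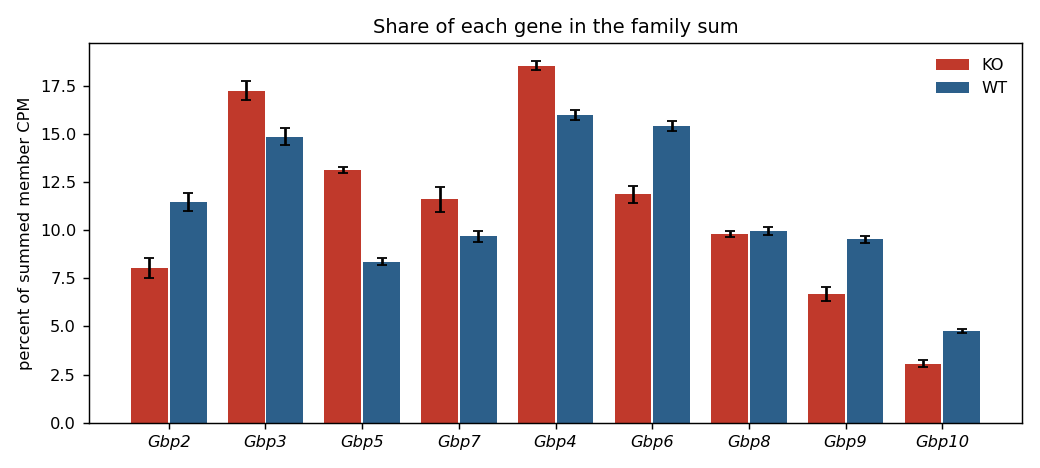
Percent of the summed member CPM held by each member (bars: mean; error bars: SD of 4 libraries), KO in red left of WT in blue, chromosome 3 members first. The share of Gbp5 was 13.1% in KO and 8.37% in WT, while that of Gbp2 was 8.05% in KO and 11.4% in WT.

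Levels of different genes can be set side by side only per exon length. In CPM per kilobase, Gbp3 was the highest member in KO at 42.2 ± 1.8 (SD, n = 4), apart from Gbp2 at 25.6 ± 1.4, which was followed by Gbp8 at 22.8 ± 0.78 and Gbp4 at 19.8 ± 0.64. Gbp7, Gbp6 and Gbp5 came next at 16.5 ± 0.90, 15.9 ± 0.44 and 15.8 ± 0.48, and neighbours among these overlapped in their ranges. Gbp9 at 10.3 ± 0.73 and Gbp10 at 6.35 ± 0.40 were the lowest and lay apart from each other. Gbp2 and Gbp3 overlapped at the top in WT libraries, at 96.8 ± 1.4 and 96.9 ± 5.5 CPM per kilobase, whereas their ratio was 0.576 to 0.645 in KO. Below them in WT stood Gbp8 at 61.6 ± 2.8, Gbp6 at 55.2 ± 1.6 and Gbp4 at 45.5 ± 1.7, with ranges that did not touch. Gbp9 at 39.2 ± 1.7 and Gbp7 at 36.7 ± 0.92 overlapped in WT, and so did Gbp5 at 26.9 ± 0.16 and Gbp10 at 26.3 ± 0.84. Exon length here counts all annotated exons, so a gene with many unused exons is understated. The places of Gbp10 and Gbp6 also depend on how reads of these near-identical copies were handled, which was not tested.

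**Figure D4:**
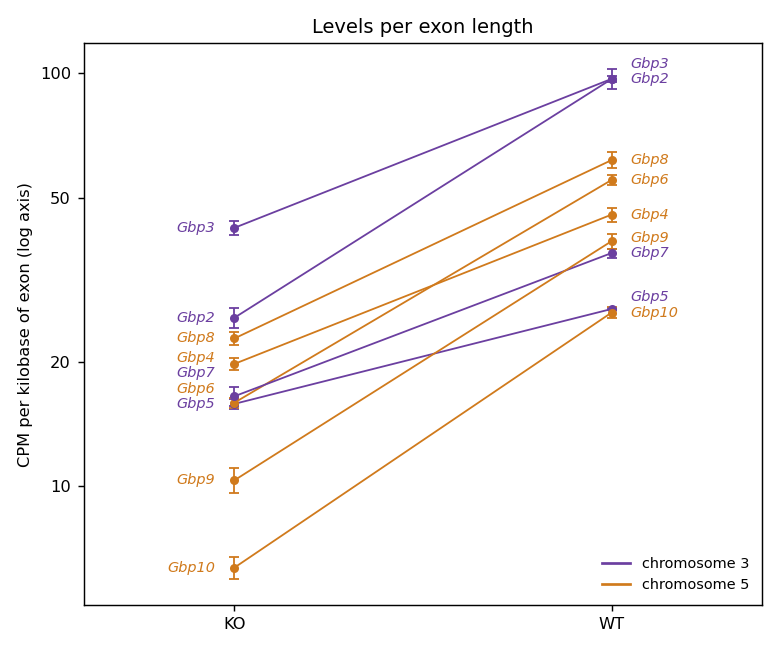
Mean CPM per kilobase of annotated exon for each member, log axis, KO on the left and WT on the right (bars: SD of 4 libraries; purple: chromosome 3, orange: chromosome 5). Gbp2 and Gbp3 meet near 97 in WT and stand at 25.6 and 42.2 in KO.

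Promoter sequence was available in RefSeq (GRCm38.p6) for 4 of the 9 members, Gbp2, Gbp3, Gbp5 and Gbp7. The 250 bases before each start were searched on both strands for GAAA, any 2 bases and GAAA again, the core of the interferon-stimulated response element bound by interferon regulatory factors. It occurred before at least 1 start of each of the 4, as it did for 3.46% of all 27025 genes with listed promoters of that length (2.98% of 32851 single promoters). The matches are shown for the 4 members with a listed promoter, and any part of the motif in their fall was not tested. Each run is 30 bases, on the plus strand, with the matches in capitals; they read as TTTC, 2 bases and TTTC, since the motif stands on the opposite strand.
Gbp2: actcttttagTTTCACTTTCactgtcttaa
Gbp3: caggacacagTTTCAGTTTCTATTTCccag
Gbp5: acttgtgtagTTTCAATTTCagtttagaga
Gbp7: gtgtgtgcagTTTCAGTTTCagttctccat
The runs lie at chr3:142620594-142620623 for Gbp2, chr3:142559989-142560018 for Gbp3, chr3:142496759-142496788 for Gbp5 and chr3:142530273-142530302 for Gbp7. The matches start 59, 45, 165 and 53 bases before the RefSeq start, and Gbp3 holds 2 that overlap each other. In Gbp2 the match falls inside an exon of the deposited annotation, whose start lies further upstream. The Gbp5 match also lies downstream of the deposited start, between the deposited exons at chr3:142493978-142494125 and chr3:142496900-142496995. A 2nd listed start of Gbp3 had no match. The palindrome TTCNNNGAA, the form of the gamma-activated site, occurred in Gbp5 and Gbp7 and not in the windows of Gbp2 and Gbp3, and before at least 1 start of 8.13% of all genes (7.02% of single promoters). Of the immunity-related GTPases, 5 of the 6 with a listed promoter held the GAAA pair. A match is a description of the letters and not evidence of binding.

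Other members of the GTPase families fell as well. Gbp11, which RefSeq lists as a transcribed pseudogene beside Gbp6, stood at 6.45 ± 0.31 CPM in KO and 15.6 ± 0.87 in WT (SD, n = 4; log2 fold change -1.28, SE 0.071, edgeR, adjusted p = 2.21e-13). Gbp2b, the mouse gene also known as Gbp1, was close to background, with 4, 3, 6 and 6 counts in KO and 21, 19, 12 and 21 counts in WT libraries (log2 fold change -1.68, SE 0.42, edgeR, adjusted p = 0.00118). Of the immunity-related GTPases, 8 of 9 listed genes were found and tested. All 8 fell, where 31.6% of all tested genes were called lower, with a median log2 fold change of -1.09. Iigp1, which attacks the vacuole of Toxoplasma, stood at 30.1 ± 1.8 CPM in KO and 86.6 ± 2.9 in WT (SD, n = 4). The near-identical T cell GTPase genes Tgtp1 and Tgtp2 stood at 55.3 ± 2.0 and 52.1 ± 2.2 CPM in KO and at 139 ± 3.2 and 134 ± 2.4 in WT (SD, n = 4). Their log2 fold changes were -1.52 for Iigp1 (SE 0.049), -1.34 for Tgtp1 (SE 0.044) and -1.36 for Tgtp2 (SE 0.044).

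The ligand moved the other way. Ifng, which encodes interferon gamma, stood at 25.2 ± 1.2 CPM in KO and 1.56 ± 0.30 in WT libraries (SD, n = 4; log2 fold change 4.0, SE 0.095, edgeR, adjusted p = 5.30e-20). The other 5 listed ligands, Ifnb1, Ifna2, Ifna4, Ifnl2 and Ifnl3, had 0 counts in all 8 libraries, which allows up to 0.0487 to 0.0691 CPM per library at 3 counts, for counting error only.

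Receptors and kinases were mostly lower, in 6 of 7 tested genes, where 31.6% of all tested genes were called lower. Their median log2 fold change was -0.62. Ifnar1 and Ifnar2, the chains of the type I interferon receptor, fell by 0.99 (SE 0.045) and 0.92 (SE 0.043) on the log2 scale, and the kinase gene Jak2 fell by 0.71 (SE 0.045). Among genes chosen after their values were seen, Ifngr1, the ligand-binding chain for interferon gamma, averaged 222 ± 6.8 CPM in KO and 312 ± 7.8 in WT, and its partner Ifngr2 1.89 ± 0.26 in KO and 2.72 ± 0.28 in WT (SD, n = 4). Tyk2 stood at 37.2 ± 1.1 CPM in KO and 36.6 ± 1.7 in WT (SD, n = 4; edgeR, adjusted p = 0.70).

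Of 12 transcription factors of the pathway reported here 6 fell, 3 rose and 3 were not called, with a median log2 fold change of -0.42. Among all tested genes, 31.6% were called lower and 32.8% higher in KO. Irf1, which interferons induce and which drives many guanylate-binding protein promoters, stood at 93.0 ± 4.0 CPM in KO and 200.3 ± 2.5 in WT (SD, n = 4; log2 fold change -1.11, SE 0.044). Irf2, an antagonist of Irf1, fell by 0.93 on the log2 scale (SE 0.045). Irf8, named after its value was seen, went against these with 302 ± 28 CPM in KO and 138 ± 4.5 in WT (SD, n = 4; log2 fold change 1.13, SE 0.056).

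Inhibitors of the signal were split, with 5 rises and 4 falls among 10 and a median log2 fold change of 0.12. The shares among all tested genes were 32.8% called higher and 31.6% called lower in KO. Cish, a cytokine signalling suppressor, rose by 1.71 (SE 0.044) and the tyrosine phosphatase gene Ptpn1 by 0.57 (SE 0.047) on the log2 scale. Irf2bp2, a corepressor that binds IRF2, fell by 0.57 (SE 0.052). Of 16 tested targets of interferon gamma other than the GTPases, 11 fell and 2 rose, to be set against the same shares. Their median log2 fold change was -0.34, beside -1.44 for the guanylate-binding proteins. Xaf1, a proapoptotic interferon-induced gene, fell by 1.42 (SE 0.080) and Parp14, an ADP-ribosyltransferase, by 0.75 (SE 0.054). Serpina3g, a serine protease inhibitor with close paralogs, rose by 1.21 (SE 0.050).

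**Figure D5:**
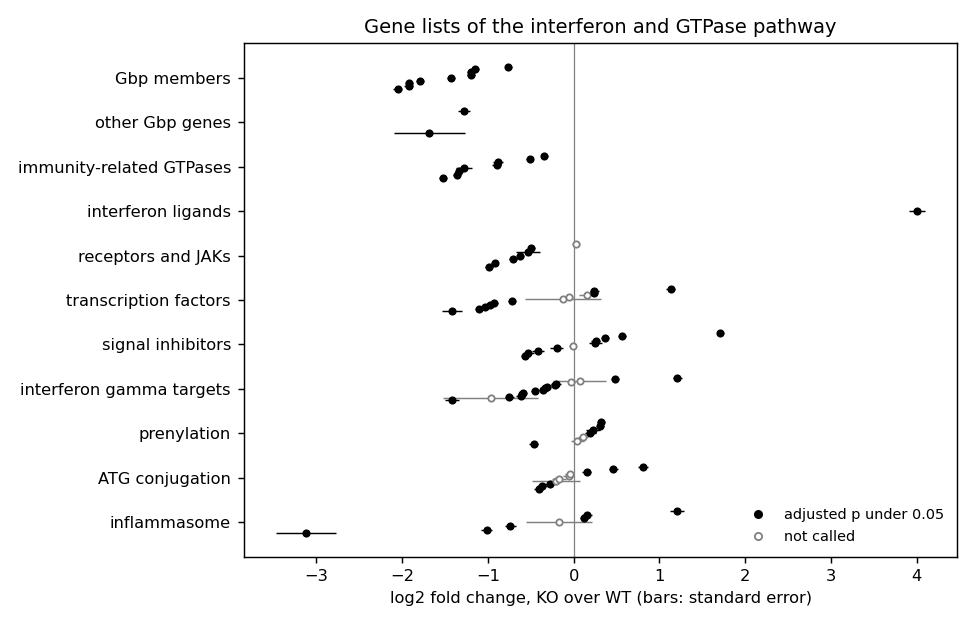
Log2 fold change, KO over WT, of each tested gene in the pathway lists (points; bars: standard error; filled: adjusted p under 0.05; open: not called). All members and immunity-related GTPases lie below 0, while Ifng, the only tested ligand, lies at 4.0.

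The genes whose profile over the 8 libraries was most like the mean of the members were sought among 7619 other genes of at least 10 CPM. Likeness was the root mean square difference of centred log2 CPM, and among the 5 nearest were Trim12a at 0.043, Myb at 0.045, Apol7e at 0.053 and Jakmip1 at 0.053. Myb is a transcription factor of proliferating progenitor cells, Apol7e belongs to the apolipoprotein L family and Jakmip1 encodes a protein that binds Janus kinases and microtubules. Trim12a belongs to the tripartite motif proteins and averaged 39.7 ± 1.4 CPM in KO and 108 ± 1.7 in WT (SD, n = 4). Since most of each profile is the step between genotypes, a gene with a fall of similar size ranks high whatever its function.

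The defining markers of the labelled cell type were present. Cd3e averaged 79.2 ± 4.8 CPM in KO and 113 ± 2.0 in WT, and Cd8a 239.5 ± 7.8 in KO and 331 ± 5.4 in WT (SD, n = 4). Of the 9 T cell markers 8 were lower in KO, and their summed level was 1445 to 1618 CPM in KO and 1923 to 2009 in WT, without overlap. For reference, 31.6% of all tested genes were called lower and 32.8% higher in KO. Macrophages and monocytes also express guanylate-binding proteins. Their 12 markers summed to 18.1 to 21.8 CPM in KO and 21.1 to 21.5 in WT libraries, with overlap, most of it Ccr2, which T cells also express, at 14.0 ± 1.7 CPM in KO and 14.4 ± 0.21 in WT (SD, n = 4). Of this list Itgam was lower, at 0.557 ± 0.19 CPM in KO and 2.26 ± 0.31 in WT (SD, n = 4; log2 fold change -2.01, SE 0.21), and Csf1r higher, at 2.00 ± 0.25 CPM in KO and 1.28 ± 0.25 in WT (SD, n = 4; log2 fold change 0.65, SE 0.17). The defining genes Adgre1, C1qa, C1qb and C1qc stood at under 0.1 CPM on average in both genotypes. The 9 dendritic cell markers summed to 23.5 to 27.8 CPM in KO and 18.5 to 20.005 in WT, mostly from H2-Ab1 and Cd74. Its 6 tested genes split into 4 that were higher in KO, 1 that was lower and 1 not called. The lower one, Itgax, stood at 0.594 ± 0.12 CPM in KO and 1.26 ± 0.19 in WT (SD, n = 4), a log2 fold change of -1.08 (SE 0.21). Of the 4 higher ones, Zbtb46 stood at 2.37 ± 0.33 CPM in KO and 0.618 ± 0.16 in WT (SD, n = 4). The log2 fold change of Zbtb46 was 1.95 (SE 0.20). The 8 stromal and endothelial markers summed to 25.3 to 30.6 CPM in KO and 99.9 to 112 in WT, nearly all of it Pecam1, a gene that T cells also express, while Cdh5 and Dcn stood near 0. Of the 7 melanoma markers Mlana, Tyr and Tyrp1 had 0 counts in all libraries, and the sum of 5.30 to 6.56 CPM in KO and 17.9 to 19.4 in WT came mostly from Pmel. The 6 B cell markers summed to 3.12 to 3.93 CPM in KO and 4.92 to 6.44 in WT, and the 5 neutrophil markers to 0.262 to 0.633 in KO and 0.540 to 1.01 in WT. The 6 natural killer cell markers summed to 47.8 to 52.5 CPM in KO and 35.1 to 39.3 in WT. Most of it was Eomes, at 43.4 ± 2.4 CPM in KO and 24.4 ± 2.0 in WT (SD, n = 4). Of its 5 tested genes 2 were higher in KO, 1 was lower and 2 were not called. The lower one, Gzma, stood at 4.38 ± 0.57 CPM in KO and 11.1 ± 0.70 in WT (SD, n = 4). The 4 markers of CD4 T cells summed to 31.9 to 35.5 CPM in KO and 36.1 to 38.3 in WT. The T cell, stromal, melanoma, B cell and CD4 T cell sums were thus wholly lower in KO, as the members were, those of dendritic and natural killer cells wholly higher, and those of macrophages and neutrophils overlapped. The part of any of these in the result was not tested.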

How the data were processed

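Raw counts per gene were deposited by the authors. Per the submitters' processing notes, Trimmomatic 0.36, featureCounts of Subread 1.5.1 and the build GRCm38 were used. Per the labels' protocols, TRIzol RNA went into a stranded mRNA library kit. No source used here gives strand setting, annotation release, aligner or the rule for shared exons. Among low entries (1 to 10 counts), even entries held 87.0% to 88.7% of the summed counts, as when both mates are counted.

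Here, edgeR 4.0.16 in R 4.3.3 compared 4 KO with 4 WT libraries: filterByExpr, TMM scaling and a robust quasi-likelihood F test, two-sided, adjusted by Benjamini-Hochberg over 17940 genes at a threshold of 0.05. Standard errors equal |log2 fold change| over the square root of F. DESeq2 1.42.0 and limma 3.58.1 served as alternatives, and the fit was tested on simulated data.

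Members and lists were chosen with earlier results of these data known. Named are all members, up to 3 called genes per list with the smallest adjusted p, genes sharing member exons, library checks and the 5 most alike genes, except 1 gene that is not reported here and was left out of its list. Other genes, such as Ifngr1, Irf8 and the cell markers, were picked once their values had been seen. Within a genotype the median chi-square per gene between libraries, on halved counts, was 1.78 to 5.38 times sampling noise, so none was treated as a repeat.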

Additional observations from a re-analysis of the deposited data

How the results depend on the processing

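Under 18 other fits over all genes, all 9 members stayed lower in KO at an adjusted p under 0.05. All 178 alternative log2 fold changes kept direction and call. The 178 include the summed rows, entered under the name of each member in them. A sum of rows that all fall must fall too, so the outcome of those was fixed in advance. Over the 18 fits Gbp10 had the lowest member value, down to -2.09, and Gbp5 the highest, up to -0.75. The chromosome 3 members summed gave -1.25, a value of the sum and not of Gbp5 or Gbp2. Total calls were 10105 to 11828, against 11542. The count of inflammasome genes higher in KO was 3, but 1 under upper quartile scaling, under library totals and with a minimum mean of 1 CPM, and 2 without a filter and with counts halved; leaving out 1 library gave 1 to 3. Its genes lower in KO were 2 with the 1 CPM minimum. Targets of interferon gamma higher in KO were 3 without a filter and 2 to 3 with 1 library left out, and ATG genes higher in KO were 2 to 3 with 1 library left out. Of the other guanylate-binding proteins, 1 was lower with the 1 CPM minimum or with counts halved, since Gbp2b was no longer tested. The cause of the other moves was not tested. The numbers 1 to 4 did not pair the libraries: same-numbered deviations correlated at 0.0049 to 0.0574, and not every library matched its own number best. With the number as a replicate block 11516 genes were called and all 9 members stayed lower.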

Other observations

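Genes that modify guanylate-binding proteins, guide them or act downstream of them moved in both directions. Over all tested genes 32.8% were higher and 31.6% lower in KO. Of 7 genes of the prenylation pathway, 4 rose, 1 fell and 2 were not called, with a median log2 fold change of 0.20. Zmpste24, a protease for prenylated proteins, averaged 131 ± 4.5 CPM in KO and 105 ± 7.3 in WT, and Fnta, the shared subunit of the prenyltransferases, 45.2 ± 2.2 in KO and 36.6 ± 1.2 in WT (SD, n = 4). Fntb, the farnesyltransferase beta subunit, averaged 22.1 ± 0.56 CPM in KO and 30.6 ± 2.0 in WT (SD, n = 4). Of 10 ATG genes, whose conjugation system guides these GTPases to vacuoles, 3 rose, 3 fell and 4 were not called, shares near those of all genes. With upper quartile scaling or library totals 4 fell, since Gabarap was then called as well (edgeR, adjusted p = 0.0283 and 0.0387). Gabarapl1 rose by 0.81 (SE 0.058) and Atg5 by 0.46 (SE 0.053) on the log2 scale, and Map1lc3b fell by 0.41 (SE 0.054).

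Of 7 tested inflammasome genes, 3 rose and 3 fell. Pycard, the inflammasome adaptor, averaged 10.8 ± 0.65 CPM in KO and 21.9 ± 0.17 in WT, and Gsdmd, the pore-forming gasdermin D, 17.0 ± 1.5 in KO and 28.4 ± 1.7 in WT (SD, n = 4). Casp4, which encodes mouse caspase-11, averaged 13.2 ± 0.90 CPM in KO and 5.74 ± 0.41 in WT (SD, n = 4; log2 fold change 1.21, SE 0.078, edgeR, adjusted p = 3.58e-12). The other rises, of Aim2 and Casp1, named after their values were seen, lost their call under upper quartile scaling (edgeR, adjusted p = 0.116 and 0.0707), where both log2 fold changes were still above 0.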
